A study of Homo sapiens with 12 samples.

Results

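MyLa is an established cell line of cutaneous T cell lymphoma, a cancer of T lymphocytes that live in the skin. The baseline transcriptome described here comes from the 3 libraries of vehicle-treated cells, out of 12 libraries in the series, chosen by their treatment label alone. These cells received DMSO for 24 h, at a volume matched to that of the drug combination used in the other libraries. They were seeded at 500000 cells/mL in medium with 20% fetal bovine serum and 20 ng/mL interleukin-2, so every value below belongs to cells of 1 line grown with this cytokine. The other 9 libraries, which hold cells given romidepsin, afatinib or both, were not used. Whether the 3 DMSO libraries came from separate cultures is not stated in the labels, so the spread between them may be technical. Because all 3 libraries share 1 condition, no test between groups was made, and the results are levels with their spread.

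A mature T cell is defined by its antigen receptor, made of variable chains that bind antigen and invariant CD3 chains that signal through the kinases LCK and ZAP70. Helper T cells carry CD4, cytotoxic T cells carry CD8, and malignant T cells of the skin often lose surface proteins such as CD7 and CD26. Interleukin-2 signals through the receptor chains IL2RA, IL2RB and IL2RG, the kinases JAK1 and JAK3, and the transcription factors STAT5A and STAT5B.

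Each library held between 10246436 and 12458644 counted read pairs, called reads here, over 59050 gene names. Levels are given in 2 scales. CPM is reads per 1000000 reads of the library total, and TPM is reads divided by the merged exon length of the gene and scaled to a sum of 1000000 per library, which is the scale used to set genes side by side. Each level is an average over all cells of a library, in which fewer cells with a transcript and less of it per cell cannot be told apart. A gene was called expressed when it had at least 1 TPM in all 3 libraries, and called unread when it had no read in any of them. A count of 0 over the 3 libraries allows a level of up to 0.0865 CPM, a limit that covers counting error only. Across 59050 gene names, the Pearson correlation of log2(TPM + 1) was 0.984 to 0.985 between library pairs, a description in which genes are not independent. Of these names 32659 had no read in any library, and such shared zeros help to make the correlation high. The biological coefficient of variation was 6.97%. Errors after ± are standard deviations over the 3 libraries, and values per library are in the order of replicates 1, 2 and 3. Replicate 3 had the largest share of reads from mitochondrially encoded genes, 14.8%, against 12.2% and 11.7% in replicates 1 and 2, and many nuclear genes had their lowest TPM in it; the part of this share in those values was not tested.

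Expression reached 13888 of the 59050 gene names, which is 23.5%, and 32659 names, or 55.3%, were unread. Protein-coding genes made up most of the signal. Of 19738 protein-coding genes, 10181 were expressed (51.6%) and 4990 were unread (25.3%), and these shares are the background for the gene groups below. The median level of all protein-coding genes was 1.76 TPM, and the median of those expressed outside the mitochondrial genome was 17.4 TPM. At least 100 TPM was reached by 1033 protein-coding genes and by only 20 of 14550 long noncoding genes, of which 9223 were unread. Expressed protein-coding genes had a median exon length of 5096 bases, and unread ones a median of 2474.5 bases. Among the autosomes and chromosome X, the share of protein-coding genes expressed ran from 39.2% on chromosome X to 59.9% on chromosome 16.

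**Figure D1:**
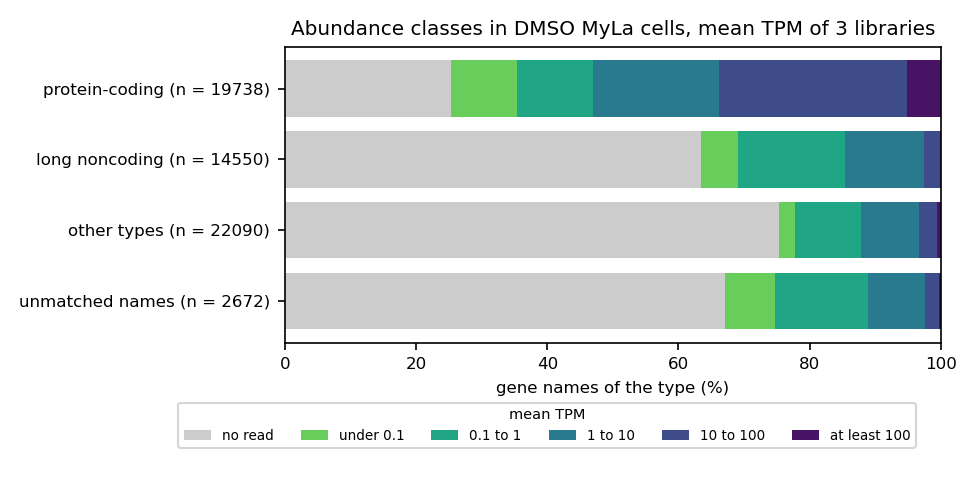
Share of gene names, in percent, in each class of mean TPM over the 3 DMSO libraries, by gene type, with the number of names of each type beside its bar. Unread names, in grey, make up 25.3% of protein-coding genes and 63.4% of long noncoding genes.

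A count of 0 in this table does not always mean a silent gene. Reads that overlapped the exons of more than 1 gene were not counted, and of 482 protein-coding genes with at least 90% of their exon length covered by another gene, 410 were unread (85.1%), against 25.3% of the 15636 genes with less than 10% covered. EEF1G, a translation elongation factor covered over 99.7% of its length, had no read, and MIF, a cytokine covered over 94.1%, had 2. Reads that map to several places were also left out. All 18 protein-coding names annotated on both the X and Y chromosomes were unread, including CD99 and the mitochondrial carrier SLC25A6, so their zeros and those of the receptor genes IL3RA, CSF2RA, CRLF2 and IL9R carry no information on expression.

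The most abundant transcripts came from the mitochondrial genome and from the machinery of the cytoskeleton and of translation. Mitochondrially encoded genes took 12.9% ± 1.69 of reads, held 12 of the 20 places at the top of the CPM ranking and 15 of the 20 at the top of the TPM ranking, and because they are short took 39.6% ± 3.73 of all TPM. MT-CO1, a subunit of cytochrome c oxidase, led both rankings with 322809, 263655 and 395956 reads, which is 28247 ± 4203 CPM, and 49409.8 ± 5646 TPM. MT-ATP6, of the ATP synthase, had 43250.5 ± 4911 TPM. The highest transcripts encoded in the nucleus were the cytoplasmic actin ACTG1, with 9204, 9674 and 7855 TPM, and the elongation factor EEF1A1, with 9293, 9145 and 7814 TPM. Those 2 genes overlapped in level, and both were above the other actin, ACTB, at 4949, 5293 and 4550.5 TPM, in every library. The iron-storage protein FTL followed with 4367 ± 513 TPM, then the ribosomal proteins RPL8, at 3898 ± 611 TPM, and RPS2, at 3813 ± 552 TPM, whose ranges over the libraries overlapped.

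Several of the most abundant nuclear genes are not general housekeeping genes. JUNB, a subunit of the AP-1 transcription factor, had 2917, 3155 and 2653 TPM, the 8th highest level outside the mitochondrial genome. CD74, the invariant chain of MHC class II, had 2039.5, 2094 and 1754 TPM. TNFRSF4, which encodes the costimulatory receptor OX40, had 1736, 1899 and 1576 TPM and was 20th. PNMA5, a gene of the paraneoplastic antigen family on chromosome X, was 15th with 2143, 2154 and 1906 TPM, which differed by less between the libraries (coefficient of variation in CPM 3.64%) than did those 3. The pseudogenes MTATP6P1, RPS2P5 and RPL13P12 also stood among these 20, and as near-identical copies of abundant genes they have uncertain levels. The 10 most abundant genes took 12.7% of reads, the top 100 took 28.1%, and 666 genes were enough to take 50%.

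The list of 10 genes of the T cell receptor complex had 7 expressed members, 2 unread members, among them CD3E, and a median of 25.6 TPM. The expressed members numbered 5 at 2 TPM, at 1 CPM, or with at least 10 reads required in each library. The β-chain constant gene TRBC2 had 66.0, 73.3 and 60.3 TPM, the α-chain constant gene TRAC had 59.1, 54.4 and 44.5 TPM, and the signalling chains CD3D, CD3G and CD247 had means of 65.9 ± 7.34 TPM, 50.5 ± 6.03 TPM and 49.3 ± 5.06 TPM. CD3D and TRBC2 overlapped in level, and so did TRAC, CD3G and CD247. CD3E, the ε chain, lies beside CD3D and CD3G at chr11:118304545-118316175 (GRCh38.p12), and it had no read in any library. CD3D and CD3G had 781 and 2485 reads in all, and MPZL2, on the other side of CD3E, had 4. TRDC, the constant gene of the δ chain, was unread as well, with 38.8% of its length overlapped. TRGC2, which was called expressed, had 20 reads and TRGC1 had 2. The near-identical pairs TRBC1 and TRBC2, and TRGC1 and TRGC2, could share reads that were left out.

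Nearly all reads on β-chain variable segments fell on 1 segment. TRBV6-5 held 3987 of the 3988 reads counted on 67 β-chain variable segments, with 778, 855 and 659.8 TPM. At the α locus TRAV4 held 362 of 424 reads and TRAV6 held 60. At the γ locus reads were spread over 10 of 12 segments, with TRGV3 highest at 360 of 826. The γ segments resemble each other closely and their counts are uncertain.

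**Figure D2:**
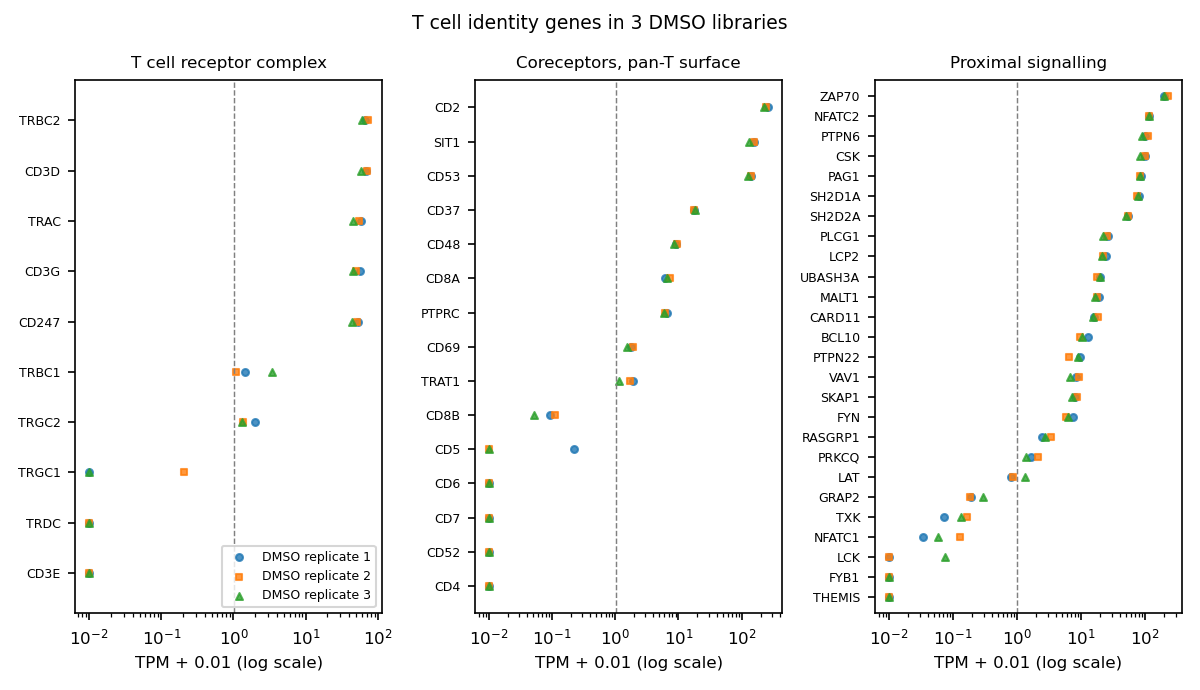
Level of genes of the T cell receptor complex, of coreceptors and other T cell surface proteins, and of proximal receptor signalling, as TPM + 0.01 on a log axis, with 1 point per DMSO library and the dashed line at 1 TPM. Points at the left edge, such as CD3E, CD4 and FYB1, are libraries with no read, and CD2 and ZAP70 stand highest in their panels.

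Among coreceptors and general T cell surface proteins, 9 of 15 genes were expressed, with a median of 1.74 TPM. CD2, the receptor for CD58, had 263, 242 and 229 TPM, the signalling adaptor SIT1 had 149 ± 15.2 TPM and the tetraspanin CD53 had 136 ± 7.89 TPM. CD4 (chr12:6786858-6820799), CD6, CD7 and CD52 were unread, and CD5, an inhibitor of receptor signalling, had 3 reads, all in replicate 1. CD8A, the α chain of the cytotoxic coreceptor, had 6.01, 7.43 and 6.59 TPM with at least 99 reads in each library, and its partner CD8B had 5 reads in all. PTPRC, the leukocyte phosphatase CD45, had 6.23 ± 0.378 TPM, and CD37 and CD48 had 17.7 ± 0.313 TPM and 8.96 ± 0.527 TPM. By these levels the libraries held transcripts of the receptor and of CD2 with few or no reads for CD4, CD5, CD6 or CD7.

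The proximal signalling genes split between an abundant ZAP70 and an almost unread LCK. Of 27 genes on this list, 20 were expressed, with a median of 10.9 TPM. ZAP70, the kinase recruited to phosphorylated CD3 and CD247 chains, led with 199, 229 and 195 TPM and 13518 reads in all. LCK, the kinase that phosphorylates those chains, had 1 read, in replicate 3. Of its neighbours on either side, HDAC1 had 2979 reads and FAM167B had 6. FYB1 and THEMIS, an adaptor and a thymocyte regulator, were unread. FYN, a kinase related to LCK, had 7.41, 5.75 and 6.32 TPM. The transcription factor NFATC2 had 115 ± 1.88 TPM, against 7 reads in all for NFATC1. Next came the negative regulators PTPN6, a phosphatase, at 101 ± 11.3 TPM, CSK, a kinase that restrains LCK, at 94.7 ± 9.59 TPM, and its anchor PAG1 at 84.1 ± 2.52 TPM. SH2D1A, the SAP adaptor, had 77.9 ± 3.71 TPM. LAT, the scaffold of the pathway, had 0.796, 0.853 and 1.33 TPM, with 49.7% of its exons overlapped by another gene.

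The promoters of the kinases ZAP70 and LCK are shown because ZAP70 had the highest level on this list and LCK had 1 read. Each sequence is the RefSeq window (GRCh38.p14, plus strand) from 250 bases before to 50 bases after the gene start, written 5′ to 3′, with CG dinucleotides in capitals. The ZAP70 window is chr2:97713326-97713625 and the LCK window is chr1:32251015-32251314.
ZAP70: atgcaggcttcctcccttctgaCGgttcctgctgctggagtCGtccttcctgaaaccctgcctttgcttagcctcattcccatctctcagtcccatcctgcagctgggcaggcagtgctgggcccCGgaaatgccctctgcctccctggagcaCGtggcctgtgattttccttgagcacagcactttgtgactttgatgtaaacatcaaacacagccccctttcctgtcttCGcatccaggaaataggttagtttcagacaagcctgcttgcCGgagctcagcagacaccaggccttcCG
LCK: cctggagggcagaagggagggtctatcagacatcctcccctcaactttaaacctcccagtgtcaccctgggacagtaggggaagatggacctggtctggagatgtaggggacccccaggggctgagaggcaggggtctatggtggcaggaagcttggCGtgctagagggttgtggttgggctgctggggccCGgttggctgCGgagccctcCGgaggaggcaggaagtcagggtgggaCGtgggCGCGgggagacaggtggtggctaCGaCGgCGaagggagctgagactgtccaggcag
The windows held 7 and 10 CG dinucleotides. The ratio of observed to expected CG was 0.309 for ZAP70 and 0.358 for LCK, below the value of 0.6 that 48.9% of 27305 RefSeq promoters exceed. RefSeq windows matched 78.1% of protein-coding names, too few for a comparison of promoter composition over all genes, which is void for that reason.

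Transcription factors of the T lineage were mostly expressed, 25 of 34, with a median of 13.3 TPM and no unread member. BATF, an AP-1 partner needed for several helper fates, had 428, 444 and 346 TPM. BHLHE40, ETS1 and RUNX3 had 404 ± 25.7 TPM, 390.4 ± 23.8 TPM and 201 ± 15.5 TPM, and GATA3, the master factor of type 2 helper cells, had 217, 211 and 201 TPM. BATF, BHLHE40 and ETS1 overlapped in level. Factors that define other helper fates were low: TBX21, of type 1 cells, had 7 reads in all, and FOXP3, of regulatory cells, had 1.85, 1.34 and 1.08 TPM. IRF4, a factor of activated lymphocytes, had 157 ± 2.22 TPM. ID2 and IKZF1 had 169 ± 13.5 TPM and 152 ± 10.6 TPM. TCF7 and KLF2, factors of naive and memory cells, had 3.00 ± 0.0657 TPM and 0.783 ± 0.145 TPM, and TOX, often raised in this lymphoma, had 14.3 ± 0.745 TPM.

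Costimulatory and inhibitory receptors were uneven: TNFRSF4 was among the most abundant nuclear genes, while CD28 and PDCD1, which encodes PD-1, were unread. Of 26 costimulatory and inhibitory receptors 12 were expressed, with a median of 0.806 TPM, and 7 had at least 100 TPM. After TNFRSF4 came ICOS, a CD28 relative, with 353, 318 and 301 TPM, and TNFRSF18, which encodes GITR, with 279, 316 and 283 TPM. TIGIT, an inhibitory receptor, had 225 ± 6.22 TPM, TNFRSF8, which encodes CD30, had 192 ± 14.6 TPM, and TNFRSF1B had 137 ± 15.3 TPM. VSIR was the other unread member, and HAVCR2, BTLA and LAIR1 had 1 read each. CTLA4 was expressed at 7.93, 6.81 and 5.09 TPM.

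Ligands of these receptors were expressed in the same libraries, 14 of 18, with a median of 25.2 TPM. CD70, the ligand of CD27, had 419.7, 415 and 363 TPM, while CD27 had 0.671 ± 0.325 TPM. CD86, which binds CD28 and CTLA4, had 135, 131 and 115 TPM. TNFSF9 and CD40LG had 111 ± 14.2 TPM and 88.4 ± 5.31 TPM, TNFSF4, the ligand of OX40, had 57.0 ± 3.39 TPM, and HHLA2 had 36.5 ± 3.39 TPM. TNFSF8, the ligand of CD30, was unread. CD274, which encodes PD-L1, had 10.9, 9.59 and 10.4 TPM. Transcripts of receptor and ligand were thus both expressed for pairs such as TNFRSF4 with TNFSF4, and CTLA4 with CD86 and CD80. CD80 had 23.3 ± 1.4 TPM. Whether the same cells held both members of a pair was not tested.

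Cytokine transcripts were led by members of the interleukin-6 family. Of 49 interleukins, interferons and growth factors, 18 were expressed and 16 were unread, with a median of 0.391 TPM, against shares of 51.6% and 25.3% over all protein-coding genes. LIF had 606, 615 and 587 TPM and OSM had 492, 517 and 400.5 TPM, and LIF was the higher in each library. TGFB1 had 429, 468 and 395 TPM, below OSM in each library, although their ranges over the libraries overlapped. EBI3, the shared subunit of interleukins 27 and 35, had 196 ± 6.70 TPM, but its partners IL27 and IL12A had 1 read and 1.25 ± 0.416 TPM. IL32 had 171 ± 21.8 TPM and CSF1, the macrophage growth factor, had 59.4 ± 9.39 TPM.

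The type 2 cytokines on chromosome 5 were expressed unevenly. IL13, an effector cytokine of allergic skin, had 90.3, 92.0 and 76.5 TPM, and IL9 had 65.7, 74.0 and 83.3 TPM, and IL9 was highest in replicate 3, where IL13 was lowest. IL5 had 1.95, 2.04 and 3.30 TPM. IL4 lies next to IL13, at chr5:132673986-132682678 (GRCh38.p12), and had no read in any library, while its other neighbour KIF3A had 870 reads. IL2, IFNG, IL10, IL18, IL26, IL12B, IL19, IL25, IL34, IL37, TSLP, IFNA1, IFNB1 and IFNL1 were also unread, as was IL24, 41.6% of which is overlapped by another gene. IL22, a cytokine that acts on keratinocytes, was unequal between the libraries, with 6, 21 and 33 reads, lowest in replicate 1. IL6 had 3.23 ± 0.890 TPM, IL31, the itch cytokine, had 5 reads, and IL17A and IL17F had 1 and 5.

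**Figure D3:**
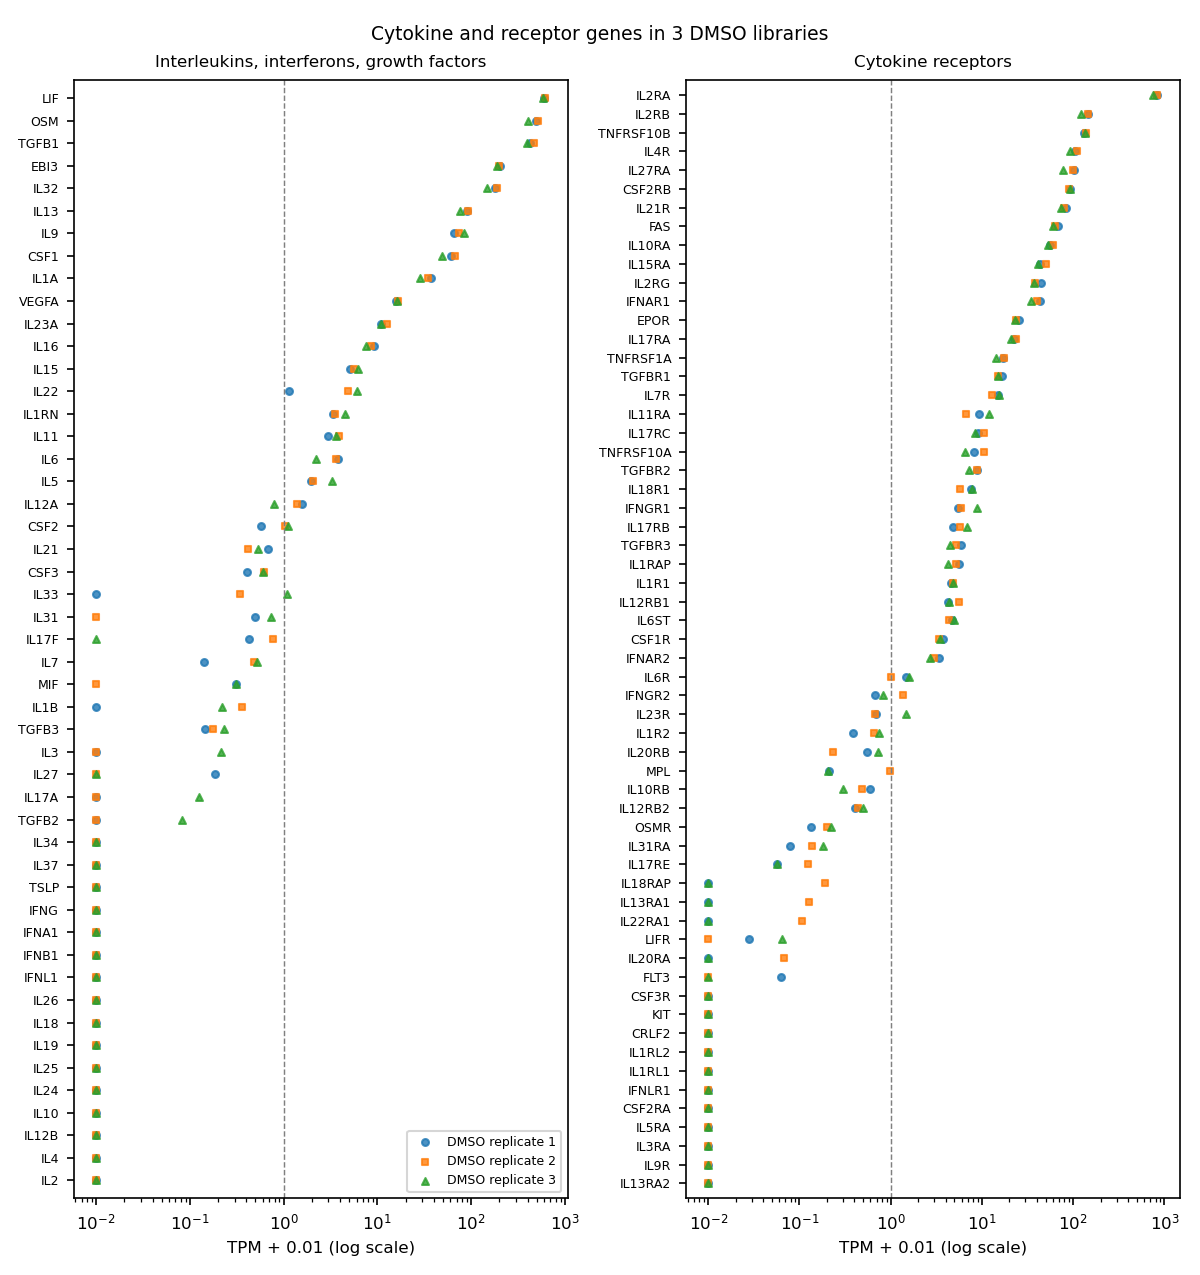
Level of each cytokine gene and each cytokine receptor gene, as TPM + 0.01 on a log axis, with 1 point per DMSO library and the dashed line at 1 TPM. LIF, OSM and TGFB1 lead the cytokines and IL2RA leads the receptors; points at the left edge are libraries with no read, among which IL3RA, CSF2RA, CRLF2 and IL9R could not be counted.

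The promoters of IL13 and IL4 are shown because these neighbouring genes differed so far in level. The windows are chr5:132656272-132656571 for IL13 and chr5:132673739-132674038 for IL4 (RefSeq, GRCh38.p14, plus strand), 5′ to 3′ with CG dinucleotides in capitals.
IL13: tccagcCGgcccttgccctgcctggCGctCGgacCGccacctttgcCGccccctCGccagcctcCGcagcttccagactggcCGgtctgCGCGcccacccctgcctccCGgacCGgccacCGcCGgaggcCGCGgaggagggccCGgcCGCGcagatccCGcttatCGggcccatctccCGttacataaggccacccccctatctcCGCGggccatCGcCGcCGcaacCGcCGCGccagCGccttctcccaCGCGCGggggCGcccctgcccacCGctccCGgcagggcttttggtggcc
IL4: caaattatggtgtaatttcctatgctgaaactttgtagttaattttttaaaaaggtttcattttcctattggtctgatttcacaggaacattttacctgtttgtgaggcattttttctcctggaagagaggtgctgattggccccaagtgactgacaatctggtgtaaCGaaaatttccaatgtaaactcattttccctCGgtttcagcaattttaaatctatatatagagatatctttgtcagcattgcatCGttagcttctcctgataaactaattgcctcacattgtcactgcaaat
The IL13 window had 37 CG dinucleotides, 76.3% G and C, and an observed to expected CG ratio of 0.903. The IL4 window had 3, with 35.3% G and C and a ratio of 0.321. The IL13 window follows the RefSeq start and lies inside the gene as counted, which begins at chr5:132656263. Whether the IL13 reads came from transcripts with the RefSeq start was not tested, and neither was the part of CG content in these levels.

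Among TNF superfamily ligands 7 of 10 were expressed, with a median of 8.88 TPM. LTA, lymphotoxin α, had 158, 168 and 145 TPM, TNFSF10, the death ligand TRAIL, had 77.7 ± 6.23 TPM, and LTB had 74.0 ± 12.8 TPM. TNF itself had 3.68, 3.06 and 3.37 TPM, below LTA in every library, although the genes are neighbours. FASLG was unread. TNFSF12 and TNFSF13, at 51.0 ± 6.22 TPM and 14.4 ± 1.4 TPM, overlap other genes over 32.7% and 55.5% of their exons and are uncertain.

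Few chemokines were expressed, 5 of 37, with 19 unread and a median of 0 TPM. CXCL10, an interferon-induced ligand of CXCR3, had 79.8, 74.9 and 81.0 TPM. CCL22 and CCL17, the ligands of CCR4, had 40.4, 47.3 and 37.6 TPM and 20.6, 24.4 and 15.1 TPM. CXCL8 and CXCL3, which attract neutrophils, had 9.23 ± 1.82 TPM and 4.16 ± 1.19 TPM. CCL2, CCL4, CCL20, CXCL12, XCL1 and XCL2 were among the unread members, and CCL5, a chemokine of cytotoxic cells, had 1 read. The other unread members were CCL7, CCL8, CCL11, CCL15, CCL16, CCL18, CCL19, CCL21, CCL24, CCL25, CCL26, CCL27 and CXCL14, of which CCL27 is overlapped over 99.0% and CCL15 over 41.8% of the length.

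The α chain of the interleukin-2 receptor had the highest level among cytokine receptors. Of 59 receptor genes measured, 32 were expressed and 11 unread, with a median of 3.51 TPM. The share expressed, 54.2%, is near the 51.6% of all protein-coding genes. IL2RA, the α chain CD25, had 833, 827 and 754 TPM, and IL2RB had 146, 146 and 123 TPM. IL2RG, the chain shared by several receptors, had 44.1, 38.3 and 37.2 TPM, with 50.8% of its exons overlapped. TNFRSF10B, a receptor of TRAIL, had 134 ± 2.19 TPM, and IL4R, IL27RA and CSF2RB had 102 ± 8.12 TPM, 93.5 ± 13.5 TPM and 91.3 ± 0.373 TPM. IL21R, IL10RA and IL15RA, whose ligands use related signalling, had 79.6 ± 4.96 TPM, 56.1 ± 2.92 TPM and 44.8 ± 4.82 TPM, and IL7R had 14.3 ± 1.39 TPM. IL6ST, the chain through which the LIF and OSM receptors signal, had 4.71, 4.35 and 4.89 TPM, while LIFR and OSMR, the partners that bind these cytokines, had 4 and 16 reads. IL13RA1 had 2 reads and IL13RA2 none. The TGFB1 receptors TGFBR1 and TGFBR2 had 15.5 ± 0.844 TPM and 8.21 ± 0.934 TPM. KIT, CSF3R, IL5RA, IL1RL1, IL1RL2 and IFNLR1 were unread.

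Among chemokine receptors CCR7, CXCR4 and CCR4 were far above the others. Of 22 genes 7 were expressed and 8 unread, with a median of 0.117 TPM. CCR7, the lymph node homing receptor, had 637, 646 and 587 TPM, and CXCR4 had 428, 414 and 349.6 TPM. CCR4, the skin homing receptor for CCL17 and CCL22, had 422, 379.5 and 368 TPM, which overlapped CXCR4. CCR10 and CCR8, also of skin T cells, had 17.9 ± 1.99 TPM and 16.5 ± 2.56 TPM, and ACKR3 had 6.85 ± 1.57 TPM. CCR1, CCR2, CCR3, CCR9, CXCR1 and CXCR2 were among the unread members, as was CXCR5, which is overlapped over 88.6% of its length. CXCR3 had 2.55 ± 0.492 TPM.

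Adhesion and homing molecules were broadly expressed, 17 of 21, with a median of 7.79 TPM and no unread member. S1PR4, a sphingosine phosphate receptor, had 393, 426 and 342 TPM. SELPLG, the selectin ligand PSGL-1 that carries the skin homing epitope, had 231 ± 26.5 TPM, FUT7, the enzyme that builds this epitope, had 66.9 ± 8.82 TPM, and GPR15, a homing receptor of gut and skin, had 227 ± 8.51 TPM. ICAM1, CD44 and the integrin chain ITGAL had 227 ± 19.0 TPM, 149.9 ± 5.91 TPM and 136 ± 6.20 TPM. The integrin partner ITGB2, which pairs with ITGAL, had 6.63 ± 0.364 TPM.

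The JAK-STAT pathway, which relays interleukin-2 and many other cytokines, was expressed almost throughout. Of 24 genes on this list 22 were expressed, 11 of them at 100 TPM or more, with a median of 78.7 TPM. SOCS3, a feedback inhibitor induced by cytokines, had 803, 793 and 687 TPM. TYK2 had 417, 449 and 423 TPM, and was above JAK3, at 96.6 ± 4.25 TPM, JAK1, at 25.7 ± 1.43 TPM, and JAK2, at 2.93 ± 0.549 TPM, in each library. STAT5A and STAT5B had 259, 265 and 242 TPM and 235, 232 and 227 TPM, with STAT5A the higher in each library. The kinases PIM3 and PIM1, known targets of STAT5, had 358 ± 30.2 TPM and 191 ± 10.2 TPM, and CISH, another target, had 165 ± 17.3 TPM. STAT6, which relays interleukins 4 and 13, had 149 ± 3.57 TPM, and STAT3 had 60.9 ± 0.696 TPM. STAT4, the factor of interleukin-12 signalling, had 6 reads in all.

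The genes that encode the targets of the drugs tested elsewhere in the series differed widely in level in these DMSO libraries. Of 15 ERBB receptors and ligands 2 were expressed, HBEGF at 1.79 ± 0.290 TPM and TGFA at 1.29 ± 0.210 TPM. ERBB2 had 0.919, 1.39 and 1.46 TPM, under 1 TPM in replicate 1, EGFR had 20 reads in all, ERBB3 had 9, and ERBB4, AREG, BTC, NRG1, NRG2 and NRG3 were unread. Among 8 kinases with a cysteine at the matching position, JAK3 was highest. MAP2K7 had 38.2 ± 3.87 TPM, BLK had 4.58 ± 0.347 TPM and TEC had 1.76 ± 0.337 TPM, whereas BTK and BMX were unread. Of 17 histone deacetylases measured, the targets of romidepsin among them, 15 were expressed. HDAC1, a class I enzyme, had 59.6, 61.6 and 55.0 TPM, against 5.34, 6.41 and 5.03 TPM for its relative HDAC2, 23.4 ± 0.876 TPM for HDAC3 and 0.732 ± 0.0422 TPM for HDAC8. HDAC7, SIRT7, SIRT1 and HDAC6 had 38.7 ± 1.94 TPM, 28.5 ± 1.78 TPM, 23.9 ± 1.62 TPM and 14.1 ± 0.279 TPM. ABCB1 and ABCG2, efflux pumps for many drugs, were unread, and ABCC4, ABCC5 and ABCC1 had 9.02 ± 0.191 TPM, 8.63 ± 0.645 TPM and 5.68 ± 0.310 TPM.

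Antigen presentation genes of class I were expressed and those of class II were split. In class I 13 of 15 genes were expressed, with a median of 72.6 TPM, led by HLA-C at 496, 559 and 417 TPM, with HLA-B at 181 ± 20.8 TPM and HLA-E at 176 ± 23.7 TPM. HLA-G was unread. In class II 8 of 13 genes were expressed and 5 unread. HLA-DPA1, the α chain of HLA-DP, had 393, 423 and 326 TPM, and its partner HLA-DPB1 had 9.71, 8.58 and 6.55 TPM. CIITA, the coactivator that drives class II genes, had 80.5, 85.7 and 80.2 TPM, and HLA-DMA and HLA-DOA had 36.2 ± 5.65 TPM and 36.1 ± 4.34 TPM. HLA-DRA, HLA-DRB1, HLA-DRB5, HLA-DQA1 and HLA-DQB1 had no read in any library. The DRB and DQ genes vary strongly between people and resemble related genes, so their zeros are uncertain, which holds less for the nearly invariant HLA-DRA. For the same reason the levels of HLA-B, HLA-C and HLA-DPB1, and their order against other genes, are uncertain.

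Genes of cell division were high and the regulators of division were uneven. Of 20 cyclin and cyclin-dependent kinase genes 16 were expressed, with a median of 79.6 TPM. PCNA, the replication clamp, had 728, 779 and 628 TPM, CCND2, a G1 cyclin, had 350.4, 335 and 336 TPM, and the proliferation marker MKI67 had 296, 298 and 319.9 TPM. TOP2A, CCNA2 and E2F1 had 196 ± 12.2 TPM, 174 ± 20.6 TPM and 142 ± 8.10 TPM. CCND1 had 3, 8 and 27 reads, and E2F2 and CCNA1 were unread. In the BCL2 family 11 of 17 were expressed, with a median of 6.27 TPM. The pro-death PMAIP1, which encodes NOXA, had 469.6, 437 and 437 TPM, and the survival genes BCL2L1 and MCL1 had 242 ± 10.9 TPM and 199 ± 3.89 TPM. BAX, BAK1 and BCL2L2 had 146 ± 5.06 TPM, 69.7 ± 8.25 TPM and 22.7 ± 2.15 TPM, BCL2 had 4.37, 3.95 and 3.80 TPM, BCL2L11 had 0.797 ± 0.104 TPM and HRK was unread.

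Tumour suppressors and growth regulators had 22 of 28 members expressed, with a median of 31.8 TPM. NFKB2, a subunit of the noncanonical NF-κB pathway, had 618, 681 and 573 TPM, MYC had 369, 372 and 320.0 TPM, and CDKN1A, the inhibitor p21, had 254 ± 26.97 TPM. CDKN1B and NRAS had 123 ± 6.22 TPM and 109 ± 7.59 TPM. MYCN was unread.

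Low counts ran along chromosome band 9p21. Of 26 genes around CDKN2A, 2 were expressed and 16 unread. CDKN2A, which encodes the inhibitors p16 and ARF, had 7, 4 and 5 reads in the 3 libraries, CDKN2B had 3 reads in all, and MTAP, a purine salvage enzyme at chr9:21802636-21937651, had 6. KLHL9, a ubiquitin ligase adaptor inside the same stretch, had 18.1, 17.7 and 18.5 TPM and 1329 reads, and MLLT3, at its edge, had 7.29 ± 0.6002 TPM. The unread members included the interferon genes IFNA1, IFNA2, IFNA4, IFNA5, IFNA6, IFNA7, IFNA8, IFNA10, IFNA14, IFNA16, IFNA17, IFNA21, IFNB1 and IFNW1, which are silent in most resting cells, together with CDKN2A-DT and ELAVL2. Counts of RNA cannot tell a lost gene from a silent one, and no DNA data were used.

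**Figure D4:**
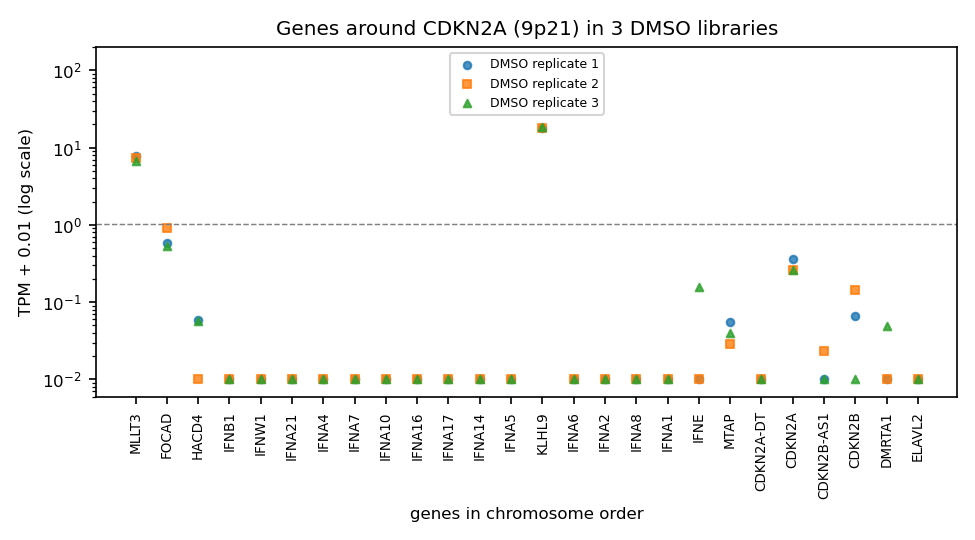
Level of the genes around CDKN2A on chromosome 9, in chromosome order, as TPM + 0.01 on a log axis, with 1 point per DMSO library and the dashed line at 1 TPM. MTAP and CDKN2A stay under 1 TPM in all 3 libraries, while KLHL9 stands above 10 TPM.

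Of 20 genes linked to cutaneous T cell lymphoma in earlier work 11 were expressed, with a median of 3.44 TPM. This share, 55%, is near the 51.6% of all protein-coding genes. JUNB, CCR4, TIGIT, GATA3 and TNFRSF8 led the list and are given above. DPP4, which encodes CD26, a protein often lost from malignant T cells, had 56.5, 53.4 and 49.3 TPM. MYB and TWIST1, a proliferation factor and a factor ectopic in this lymphoma, had 44.3 ± 2.704 TPM and 30.4 ± 1.31 TPM. KIR3DL2 had 5 reads, PLS3 had 1 and CADM1 had 2, genes that are often raised in the leukaemic form. CD7, CDO1 and EPHA4 were unread.

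Cytotoxic genes were low, with 7 of 25 expressed, 9 unread and a median of 0.161 TPM. SRGN, a granule proteoglycan of many blood cells, had 78.1 ± 7.31 TPM. GZMM, a granzyme, had 35.0, 37.1 and 29.04 TPM, and PRF1, the pore-forming perforin, had 31.8, 31.8 and 28.1 TPM, and NKG7 had 20.5 ± 1.02 TPM. GZMB had 4 reads in all, and GZMA, GZMH, GZMK, KLRC1, KLRD1, KLRK1, FCGR3A, FGFBP2 and KIR2DL4 were unread, of which GZMK and KLRK1 are overlapped over 47.7% and 62.4% of their lengths. CTSW and NCR1 had 3.40 ± 1.46 TPM and 3.07 ± 0.903 TPM.

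Glycolysis was expressed in 19 of 21 genes, with a median of 65.7 TPM. GAPDH had 3632, 3838 and 3146 TPM, PGAM1 had 851 ± 63.2 TPM and TPI1 had 695 ± 82.0 TPM. ENO1, PKM and LDHA had 432 ± 45.6 TPM, 397 ± 24.9 TPM and 321 ± 19.6 TPM, and LDHB had 17.1 ± 0.601 TPM. SLC16A1, a lactate transporter, was unread and its relative SLC16A3 had 0.567 ± 0.0544 TPM. All 14 core proteasome subunits were expressed, from PSMA2 at 3.43 ± 0.532 TPM to PSMB4 at 367 ± 40.7 TPM. Of 87 ribosomal protein names, 84 were expressed and 54 reached 100 TPM, with a median of 145 TPM. After RPL8 and RPS2 came RPL7, RPL41, RPL13A and RPLP0, at 1723 ± 118 TPM, 1432 ± 156 TPM, 1387 ± 111 TPM and 1341 ± 136 TPM. Levels of this family are uncertain because of its many pseudogenes. The structural genes TMSB10, TUBB4B and PFN1 had 2266 ± 296 TPM, 1241 ± 112 TPM and 1179.7 ± 97.8 TPM, and EEF2 had 1954 ± 216 TPM.

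Among long noncoding RNAs the hosts of immune microRNAs stood near the top. AC007220.1, on chromosome 16, led with 655, 678 and 637 TPM. MIR155HG, on chromosome 21, followed with 569.9, 510.2 and 622 TPM, and AC004687.1, on chromosome 17, which contains the MIR142 gene, had 484, 539 and 612 TPM. In replicate 3 MIR155HG and AC004687.1 were at their highest and stood close to the level of AC007220.1. MIR3142HG, on chromosome 5, which contains MIR146A, was 10th with 166, 158 and 167 TPM. The others in the top 10 were SNHG19, AC004847.1, SNHG3, AL645608.8, NORAD and AC099850.3, at 484 ± 22.0 TPM, 356 ± 13.1 TPM, 212 ± 11.1 TPM, 211 ± 12.2 TPM, 198 ± 5.39 TPM and 195 ± 6.97 TPM.

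The mature microRNAs encoded in these transcripts are shown to name what the hosts carry. Their own levels were not measured, since the counts are of host exons. Sequences are from RefSeq (GRCh38.p14), 5′ to 3′, with the seed, bases 2 to 8, in capitals. They lie at chr21:25573983-25574006 (plus strand), chr17:58331283-58331303 and chr17:58331245-58331267 (minus strand), and chr5:160485372-160485393 (plus strand).
miR-155-5p: uUAAUGCUaaucgugauagggguu
miR-142-5p: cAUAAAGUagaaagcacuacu
miR-142-3p: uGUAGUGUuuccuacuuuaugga
miR-146a-5p: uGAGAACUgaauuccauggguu
The 4 seeds differ from each other. In T cells miR-155 is known as a product of activation, miR-142 as a microRNA of all blood lineages, and miR-146a as a feedback regulator of NF-κB signalling.

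The spread between libraries was small for most genes. The median coefficient of variation of expressed protein-coding genes was 7.34% in CPM. Counting error, taken as the inverse square root of the mean count of a gene, had a median of 5.01%. It is an expected value, not an estimate from 3 libraries, so the 2 are not strictly alike. For the 2340 genes with at least 3000 reads in all, the median coefficient was 5.17% and the median counting error 2.33%. The 10 genes that departed most from counting error, by the ratio of variance to mean among those of at least 5 CPM outside the mitochondrial genome, were EEF1A1, NEAT1, ACTG1, RPL8, RPS2, AHNAK, FLNA, MALAT1, EEF2 and SRRM2, several of which are among the most abundant. The nuclear RNAs NEAT1 and MALAT1, which are neighbours on chromosome 11, both had their highest CPM in replicate 3. NEAT1 had 11226, 9358 and 16382 reads and MALAT1 had 3418, 2597 and 4906 reads, with coefficients of variation in CPM of 25.2% and 27.2%. AHNAK and SRRM2 also had their highest CPM in replicate 3, with 19574, 15433 and 23212 reads and 19372, 15953 and 22154 reads, while EEF1A1, ACTG1, RPL8, RPS2, FLNA and EEF2 had their lowest TPM in it.

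Several gene families of specialised tissues were mostly unread, against 25.3% of all protein-coding genes. Of 401 olfactory receptor genes 369 were unread and 1 was expressed, OR8B8, at 2.39, 3.19 and 2.96 TPM. Of 94 keratin-associated protein genes of hair, 90 were unread and none was expressed. Among immunoglobulin variable segments 261 of 270 were unread, but so were 120 of 136 variable segments of the T cell receptor. Over all gene names 55.3% were unread. The longest run of neighbouring protein-coding genes without a read spanned 42 genes on chromosome 8, from AGPAT5 to USP17L3 (chr8:6708642-7977985, GRCh38.p12). It holds the defensins, antimicrobial peptides of epithelia and neutrophils, and many near-identical copies that this counting leaves out, along with AGPAT5, an enzyme of phospholipid synthesis with a broad role. The next runs were 37 keratin and keratin-associated genes on chromosome 17, 35 claudin and keratin-associated genes on chromosome 21 and 32 genes, nearly all olfactory receptors, on chromosome 11.

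Developmental and germline families were expressed in part. Of 39 HOX genes, which set position along the body axis, 17 were expressed, or 43.6%, against 51.6% of all protein-coding genes. HOXC9, HOXB9 and HOXC4 were highest, at 120.2, 120.0 and 94.4 TPM, 94.6, 96.1 and 89.4 TPM and 66.8 ± 6.36 TPM. HOXB4 and HOXB7 had 61.3 ± 3.602 TPM and 45.9 ± 4.88 TPM. Of 30 cancer-testis genes measured, genes usually restricted to the germline, 7 were expressed and 17 unread. PAGE5 and MAGEB2 had 28.2, 18.2 and 16.1 TPM and 13.4, 16.6 and 10.03 TPM, and the germ cell helicase DDX4 had 7.54, 6.41 and 8.82 TPM. STAG3, GTSF1 and DAZL had 6.24 ± 0.125 TPM, 4.82 ± 0.829 TPM and 1.69 ± 0.399 TPM. The unread members were CTAG1B, CTAG2, GAGE1, MAGEA1, MAGEA4, MAGEA10, MAGEC1, MAGEC2, PAGE1, PAGE2, PIWIL1, SPANXB1, SSX1, SSX2, SSX4, SYCP1 and XAGE1A, several of which have near-identical copies. Outside these families, replication-dependent histone genes had 32 of 89 names expressed and 24 unread, with HIST1H1C highest at 119.9 ± 11.6 TPM. These names include pseudogenes and similar copies, for which reads that map to several places were left out. The library kit is not known, and how well it captures histone transcripts was not tested. The histone counts are therefore uncertain and do not show that these genes were silent.

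Markers of other cell types were expressed in part. The share expressed ran from 0% to 50% between these lists, against 51.6% of all protein-coding genes. The B cell list, at 50%, and the neuronal list, at 41.7%, were nearest to that background. Of 24 keratinocyte markers 6 were expressed, with a summed level of 439.8 to 551 TPM per library. SFN, the stratifin protein, supplied most of it with 369, 388 and 303 TPM, KRT10, LOR and PERP had 50.1 ± 6.85 TPM, 34.9 ± 5.75 TPM and 33.7 ± 2.83 TPM, and TP63, an epithelial transcription factor, had 22.6, 19.0 and 19.7 TPM. KRT1, KRT2, KRT6B, KRT15, DSG1, DSG3, FLG, IVL, S100A7, S100A8 and S100A9 were unread. Of 12 B cell markers 6 were expressed, among them BLK, given above. IGKC, the κ light chain constant gene, had 133, 115 and 119 TPM, and EBF1, a B cell factor, had 23.6, 21.6 and 22.3 TPM. CD79A had 7.34 ± 2.52 TPM and CD22 had 6.80 ± 0.290 TPM, but CD79B, MS4A1 and IGHM were unread. Of 10 fibroblast markers 3 were expressed: COL1A1 and COL3A1 had 29.3, 30.9 and 34.3 TPM and 24.9, 24.3 and 23.1 TPM, and THY1 had 1.51 ± 0.0402 TPM, whereas COL1A2, the partner chain of COL1A1, had 16 reads and DCN and LUM were unread. ITGAM, an integrin of myeloid cells, had 10.5, 11.4 and 12.6 TPM and CSF1R had 3.51 ± 0.190 TPM, while SPI1, LYZ, CD163, ELANE, FCN1 and MARCO were unread. Of 12 neuronal genes 5 were expressed, led by ENO2, which also serves glycolysis, at 147 ± 6.45 TPM, and of 9 muscle genes 1 was expressed, TTN at 2.17 ± 0.489 TPM, or 2 when replicate 3 was left out, with ACTA1 at 1.03, 1.08 and 0.874 TPM. In the endothelial list 1 of 8 was expressed, ESAM at 2.06 ± 0.845 TPM, and no melanocyte, erythroid or hepatocyte marker was. Unread members of these lists included CDH5, EMCN, KDR, PECAM1 and TEK, TYRP1, AHSP, HBB, HBG1 and HBG2, ALB, APOA2, APOB, F9, FGB, SERPINA1 and TTR, MAP2, NEFM and SNAP25, and DES, MYH2, MYOD1 and TNNT2. The part of reads from other cells in the levels of the expressed markers was not tested.

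Some low genes were unequal between the libraries. Of 5042 genes with at least 20 reads in all and a mean under 5 CPM, 18 had a ratio of variance to mean over 12, a limit and a group chosen after their values were seen. The keratin KRT5 had 59, 94 and 1 reads, its partner KRT14 had 15, 22 and 0 reads and the desmosomal PKP1 had 19, 32 and 0 reads. These 3 keratinocyte genes thus had reads in replicates 1 and 2 and at most 1 read in replicate 3. The prostate kallikrein KLK3 and the epithelial factor FOXA1 showed the opposite, with 0, 0 and 40 reads and 0, 0 and 20 reads, all in replicate 3, and the stress cytokine GDF15 had 3, 5 and 34 reads. The collagen COL6A2 had 0, 21 and 35 reads, with none in replicate 1. The levels of the genes named in this paragraph are at most 6.14 TPM in any library, and whether these reads came from MyLa cells was not tested.

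**Figure D5:**
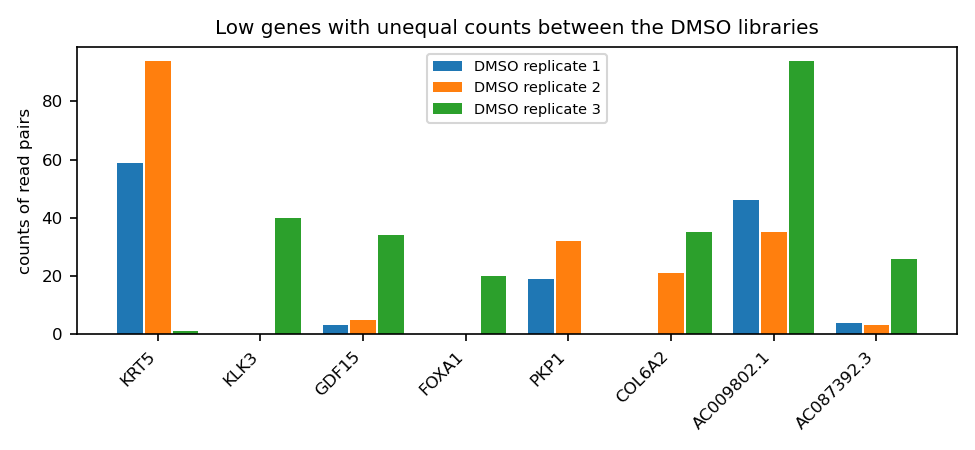
Reads counted in each DMSO library for the 8 low genes with the most unequal counts, 1 bar per library. KRT5 and PKP1 have reads in replicates 1 and 2 and almost none in replicate 3, while KLK3 and FOXA1 have reads in replicate 3 only.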

How the data were processed

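RNA of MyLa cells was sequenced in 12 libraries, and the 3 libraries labelled DMSO were used. The authors deposited raw counts, in whole numbers of read pairs, made with featureCounts 2.0.0 on GENCODE 31, per the file headers, without a strand option, without multi-mapping reads and without reads shared by overlapping genes. STAR 2.7.9a, GRCh38.p12 and DESeq2 1.38.1 are named in the submitters' processing notes. The library kit is not given in the sources used here. A second deposited table was not used, because its values did not follow the counts.

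From the deposited counts, CPM was computed with the library totals and TPM with the Length column of the same table, which is the merged exon length of all isoforms, so genes with long rare isoforms have understated TPM. Rankings by TPM used genes of at least 200 bases. Gene types came from GENCODE 29 by name (56378 of 59050 names, 95.5%). The biological coefficient of variation was estimated with edgeR 4.0.16 in R 4.3.3 after TMM scaling, and this step was tested on simulated data. Tables and figures were made in Python 3.11.15 with numpy 2.4.6, pandas 2.3.3 and matplotlib 3.10.9.

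The members and the 40 gene lists and 7 name patterns were chosen with earlier results of these data known. Named genes were the 20 highest by CPM and by TPM, the most abundant and the unread members of each list, the 10 with the largest spread, the 10 highest long noncoding genes, the leading receptor segments and the longest unread run. Other list members, pseudogenes, neighbours and genes unequal between libraries were named after their values were seen. Alternatives were other thresholds, TMM factors, a TPM total without mitochondrially encoded genes, a read minimum and leaving out each library. Some genes of these lists are not reported here, and all counts and medians include them.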

Additional observations from a re-analysis of the deposited data

How the results depend on the processing

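No paired analysis was possible because only 1 group was used, so the replicate numbers that the labels share between treatments have no partner here. The number of expressed genes, 13888 as reported, ran from 12210 with a threshold of 2 TPM to 15588 when the mean of the libraries had to reach 1 TPM, and from 14282 to 14389 when a library was left out. Expressed members over all gene lists, 393 as reported, ran from 366 to 412 over the thresholds and other settings and from 394 to 399 without a library. Unread names, 32659 as reported, numbered 36331 when 1 read per library was allowed and 33862 to 34508 without a library. Leaving out a library can only raise or keep these counts, since fewer libraries must agree. The 20 genes highest in TPM were the same 20 without each library, and 15 of them were among the 20 highest in CPM. They were also the same 20 without mitochondrially encoded genes in the total, a change that keeps the order of genes within each library. The mitochondrial share of reads was 11.9% to 13.5%, the biological coefficient of variation 5.37% to 8.28% and the median exon length of expressed protein-coding genes 5090.0 to 5093 bases without a library. With a TPM total that leaves out mitochondrially encoded genes, nuclear levels were a median of 1.66-fold higher, which follows from the smaller total. Depth limits the calls of genes with few reads, and 4 of 40 lists moved by over 1.5 times in their count of expressed members at 2 TPM, namely the ERBB, endothelial, neuronal and muscle lists. The muscle list, with 1 expressed member as reported, had 2 at 0.5 TPM, without mitochondrially encoded genes in the total and without replicate 3.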
